A study of Mus musculus with 14 samples.

Results

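The genes of central carbon metabolism were followed across macrophages exposed to IL4, a cytokine of type 2 immunity, in culture and in leukemic bone marrow. The set was a list of 49 mouse genes, namely the glucose transporter gene Slc2a1 and enzyme genes of glycolysis, of pyruvate entry into mitochondria, of the pentose phosphate pathway and of the citrate cycle. Of these, 47 were among the 9474 genes of each expression table, and Aldoc and Pcx were not among them. Glycolysis with glucose uptake was represented by 19 genes, the pyruvate dehydrogenase complex and its kinases by 6, the pentose phosphate pathway by 7 and the citrate cycle by 15. The rule that names the set goes by function and not by a threshold on measured values.

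The study asked how IL4 acts on the engulfment of leukemia cells by macrophages, and RNA of C57BL/6J mouse cells was sequenced in 14 libraries. In the culture experiment, 4 IL4 libraries came from monocytes purified from bone marrow and grown for 7 days with the growth factor CSF1 and 20 ng/mL murine IL4. The 4 control libraries of that experiment came from monocytes grown for the same time with CSF1 alone. CSF1 was used at 25 ng/mL by the growth protocol but at 20 ng/mL by the design text. In the marrow experiment, all mice carried transplanted acute myeloid leukemia (AML) cells, and F4/80-positive cells (F4/80 is a surface protein of macrophages) were sorted 12 days after transplantation from their bone marrow. The leukemia cells expressed an IL4 cDNA in the 3 IL4 libraries and an empty vector in the 3 control libraries (the design text calls the control leukemia wild type). IL4 was therefore a purified protein in culture and a product of leukemia cells in marrow. Nothing in the labels tells whether separate cultures or animals lie behind the libraries of a group, so p-values refer to the spread between these libraries, and that spread may be technical.

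Glycolysis splits glucose into pyruvate, which is either reduced to lactate or carried into mitochondria, where the pyruvate dehydrogenase complex turns it into acetyl-CoA for the citrate cycle. The pentose phosphate pathway branches off at glucose 6-phosphate. Its oxidative steps yield NADPH, and the pathway also forms ribose phosphate. Macrophages stimulated with bacterial products are known for high glycolysis and an interrupted citrate cycle. Macrophages given IL4 are known for oxidative metabolism fed by fatty acids, glucose and glutamine.

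The labelled cell types were checked against marker genes, with the caution that fewer cells of a type and less RNA per cell cannot be told apart in bulk samples. The 7 genes of the IL4 response list (Retnla, Arg1, Chil3, Mgl2, Ccl24, Pdcd1lg2, Mrc1) summed to 47700 to 58500 reads per 1000000 recovered reads (RPM) in culture IL4 libraries and 709 to 1590 in culture controls, and to 32400 to 36800 in marrow IL4 libraries and 3420 to 4530 in marrow controls. The macrophage markers with recovered reads, 7 of 9 measured and 10 listed, summed to 5040 to 5760 in culture IL4 libraries and 7910 to 8980 in culture controls. In marrow this sum was 316 to 639 with IL4 and 605 to 794 in controls. Measured macrophage markers without recovered reads are missing from these sums, which are therefore too low by an unknown amount. No measured neutrophil marker was missing in this way. Neutrophil markers, 5 of 12 listed, summed to 47200 to 58800 in marrow IL4 libraries and 62600 to 72700 in marrow controls, against 190 to 495 and 169 to 278 in the IL4 and control libraries of culture. S100a9 of the neutrophil list alone took 2.38% to 2.89% of reads in marrow IL4 libraries and 2.89% to 3.29% in marrow controls. The label of sorted macrophages thus goes together with much RNA of listed neutrophil markers in all 6 marrow libraries. Only 5 of the 12 listed were measured, and which cells this RNA came from was not tested. The gene of F4/80 itself, Emr1, had 37 to 126 reads in marrow IL4 libraries and 28 to 65 in marrow controls, against 745 to 912 and 1511 to 2415 in the IL4 and control libraries of culture. Monocyte markers (4 of 7) summed to 242 to 528 RPM with IL4 and 4350 to 6000 in controls of marrow, but to 3650 to 4870 with IL4 and 549 to 1140 in controls of culture. Endothelial and stromal markers (4 of 8) went the other way, at 143 to 236 with IL4 and 34.5 to 52.3 in controls of marrow, and at 92 to 224 with IL4 and 770 to 1890 in controls of culture. The 1 T and NK cell marker with reads (of 8) had 3.76 to 5.88 with IL4 and 37.8 to 55.3 in controls of marrow, and 618 to 862 with IL4 and 103 to 461 in controls of culture. In marrow, markers of B cells (3 of 9) summed to 47 to 84.4 with IL4 and 163 to 183 in controls, of eosinophils (2 of 6) to 149 to 235 and 69.2 to 81.5, of progenitors and leukemic blasts (3 of 8) to 235 to 269 and 125 to 150, and of megakaryocytes (3 of 7) to 286 to 377 and 92.2 to 125. In culture these 4 lists summed to 255 to 323 with IL4 and 168 to 231 in controls, 5.46 to 13.5 and 13.9 to 27.3, 15.2 to 21.8 and 37.2 to 83.6, and 482 to 705 and 334 to 633. Cell division genes, 19 of 19 measured, summed to 617 to 1070 with IL4 and 1180 to 3660 in controls of culture, and to 3490 to 4040 with IL4 and 7510 to 8580 in controls of marrow. The part of these cell types and of cell division in the results that follow was not tested. In culture, the IL4 and the control library of replicate 4 stood apart from the other libraries of their groups: the chi-square per degree of freedom between their reads and those of their group was 4.12 to 5.87 with IL4 and 4.25 to 5.5 in controls, against 1.35 to 1.63 and 1.41 to 2.05 among the other libraries. Counts of called genes in culture are therefore also given without these libraries. The share of all genes called without them is not given, so those counts cannot be set against a background.

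To show the regulatory sequence next to the expression values, RefSeq promoter windows of 300 bases (build GRCm38.p6, 250 bases before to 50 after the start) were matched by symbol for 46 of the 47 genes, all but Idh3a. Each window spans the RefSeq start of its gene. Slc2a1 (chr4:119108495-119108794, plus strand) and Ldha (chr7:46845554-46845853, plus strand) are shown because they belonged to the genes that rose most in culture, and G6pdx (chrX:74428831-74429130, minus strand) because it fell there. Capitals mark ACGTG or GCGTG on either strand (read as CACGT or CACGC on the printed strand), the core letters bound by hypoxia-inducible factors. The longer CACGTG, the E-box bound by factors of the MYC family, holds ACGTG on both strands.
Slc2a1: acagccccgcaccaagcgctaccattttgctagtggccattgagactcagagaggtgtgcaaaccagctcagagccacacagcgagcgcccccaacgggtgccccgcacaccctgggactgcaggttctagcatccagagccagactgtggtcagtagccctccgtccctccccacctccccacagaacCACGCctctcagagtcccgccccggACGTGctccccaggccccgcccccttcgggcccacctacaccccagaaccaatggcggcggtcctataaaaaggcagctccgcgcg
Ldha: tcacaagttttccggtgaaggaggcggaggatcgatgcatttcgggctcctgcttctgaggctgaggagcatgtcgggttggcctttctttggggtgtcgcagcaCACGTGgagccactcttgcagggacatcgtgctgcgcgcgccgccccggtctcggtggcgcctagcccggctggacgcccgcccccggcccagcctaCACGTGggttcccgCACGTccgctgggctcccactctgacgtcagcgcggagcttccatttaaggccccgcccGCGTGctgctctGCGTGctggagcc
G6pdx: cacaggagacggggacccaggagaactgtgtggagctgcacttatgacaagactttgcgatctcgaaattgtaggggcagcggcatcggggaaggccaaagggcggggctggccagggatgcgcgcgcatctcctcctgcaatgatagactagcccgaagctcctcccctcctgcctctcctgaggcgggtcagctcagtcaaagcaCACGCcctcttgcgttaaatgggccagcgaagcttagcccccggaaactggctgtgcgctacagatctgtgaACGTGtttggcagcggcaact
The Slc2a1 window held 1 ACGTG and 1 GCGTG, the Ldha window 5 ACGTG, of which 4 came from 2 CACGTG, and 2 GCGTG, and the G6pdx window 1 of each. Either core was found in 12 of the 16 genes that rose in culture (75.0%), in 7 of the 8 that fell (87.5%) and in 71.7% of the 46 windows. Among the promoters of all 7322 measured genes in the RefSeq table the share was 65.7%, and among all 27025 promoters of that RefSeq set it was 43.8%. ACGTG alone was found in 43.8% of the risen, 37.5% of the fallen and 27.2% of the measured genes, and GCGTG in 8 of the 16 risen genes, 75.0% of the fallen and 54.0% of the measured ones. CACGTG was found in 6.25% of the risen, 12.5% of the fallen and 10.9% of the measured genes. These matches describe letters in a window and no binding was measured.

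IL4 in culture went with higher RNA of most glycolysis genes. Of the pentose phosphate genes 3 of 7 were lower, and of the citrate cycle genes 4 of 15, where 32.6% of all genes fell. The citrate cycle share was no larger than that, and with so few pentose phosphate genes their share was not clearly larger. Of the 47 genes, 16 rose and 8 fell at an adjusted p below 0.05 (limma on the deposited log2 values, Benjamini-Hochberg over all 9474 genes), where 7.96% of all genes rose and 32.6% fell (40.5% either way). Over all genes, the log2 fold change had a median of -0.36, so a gene at 0 lay above most others, and the 8 of 47 genes that fell are a smaller share than that of all genes. With each library centred on its median, 20 of the 47 rose and 6 fell, against 14.4% and 12.7% of all genes (27.1% either way). Without both replicate 4 libraries, 16 rose and 10 fell, with no share of all genes given for that setting. In marrow, 7 rose and 4 fell, where 6.7% of all genes rose and 11.5% fell. After centring, 11 rose and 3 fell in marrow, against 9.45% and 8.92%. Of the 24 genes called in culture 29.2% were also called in marrow, which is 63.6% of the 11 called there. Over all genes these shares were 24.8% and 55.4%. Hk3, Gpi1, Pfkp, Aldoa, Tpi1 and Ldha rose in both experiments, Pfkm fell in both, and 0 genes were called in opposite directions.

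**Figure D1:**
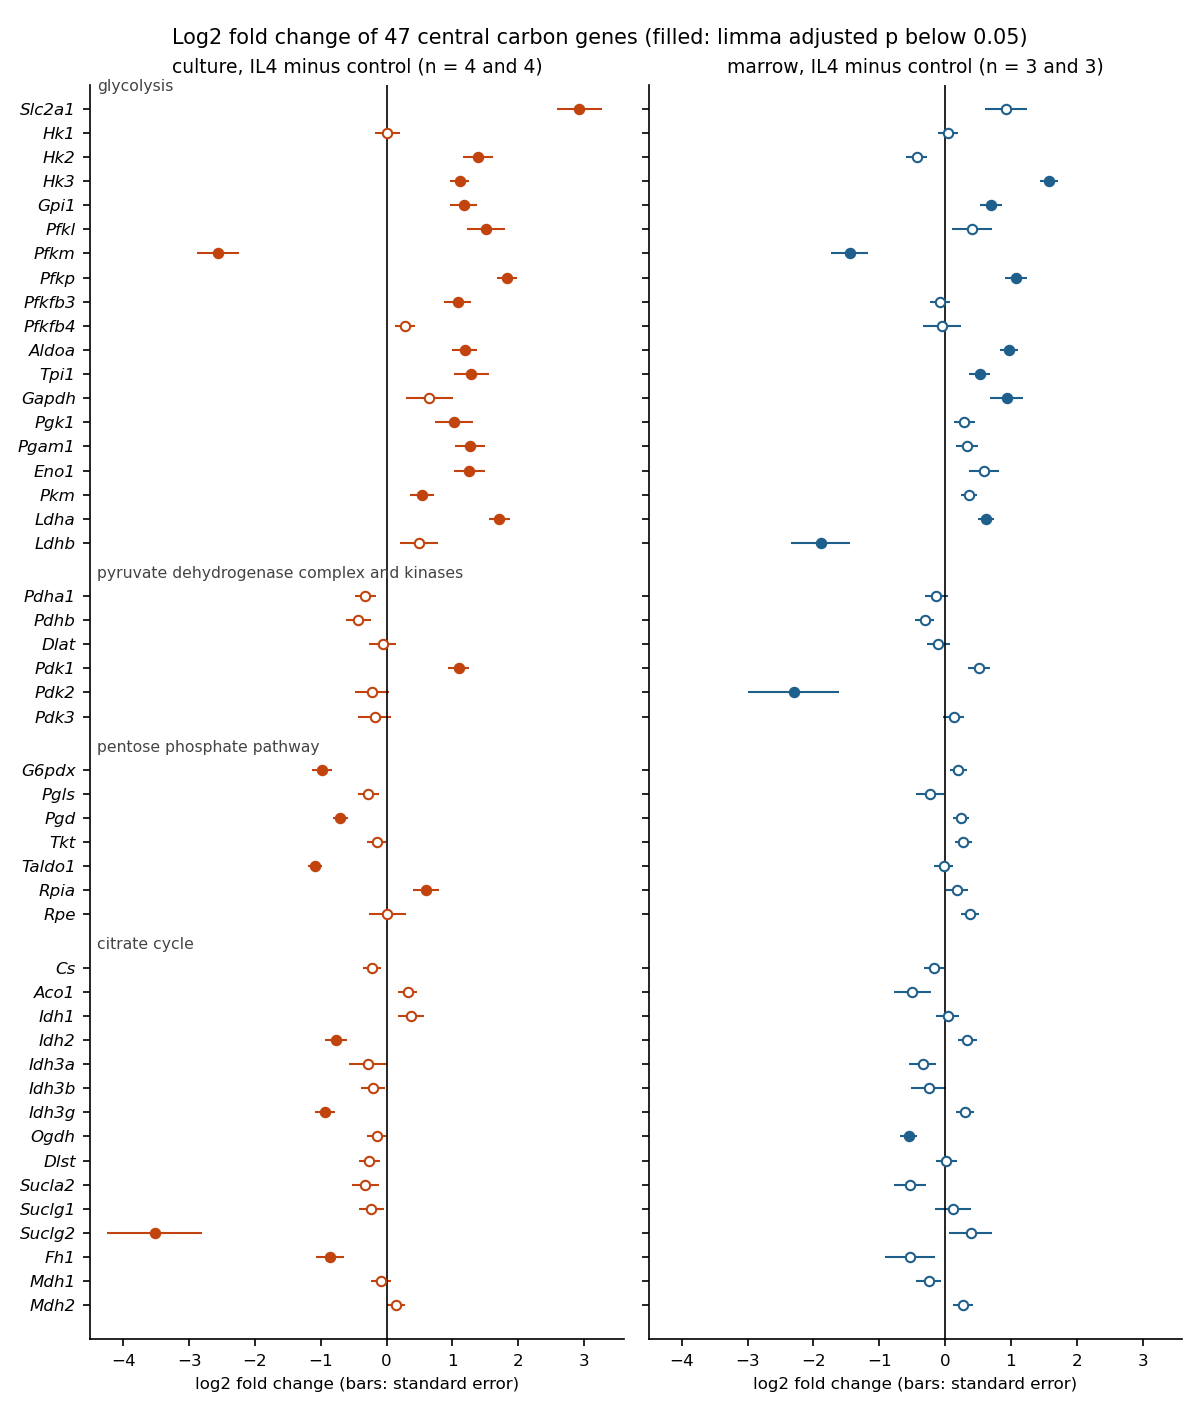
Log2 fold change, IL4 minus control, of the 47 genes in culture (left, n = 4 and 4) and marrow (right, n = 3 and 3), by branch. Points are limma estimates on the log2 scale, bars standard errors, and filled points have an adjusted p below 0.05. In culture 14 glycolysis genes lie to the right of 0 as filled points, and Pfkm, at -2.56, to the left.

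Glycolysis held most of the risen genes of culture, with 14 of 19 genes higher and 1 lower. The median log2 fold change of these genes was 1.17, against -0.36 over all genes, and 1.54 after centring. Averaged over the 19 genes, IL4 libraries 1 to 4 lay 1.13, 1.16, 1.14 and 0.39 above the control mean on the log2 scale, and controls 1 to 4 at -0.01, 0.09, 0.00 and -0.08. IL4 library 4 was thus raised by much less than the other IL4 libraries, but above every control. Without both replicate 4 libraries 15 glycolysis genes rose and 1 fell. In marrow 7 of the 19 rose and 2 fell, with a median of 0.41, against -0.06 over all genes, and the IL4 libraries lay 0.27, 0.22 and 0.37 above the control mean, with controls at -0.02, 0.02 and 0.00.

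**Figure D2:**
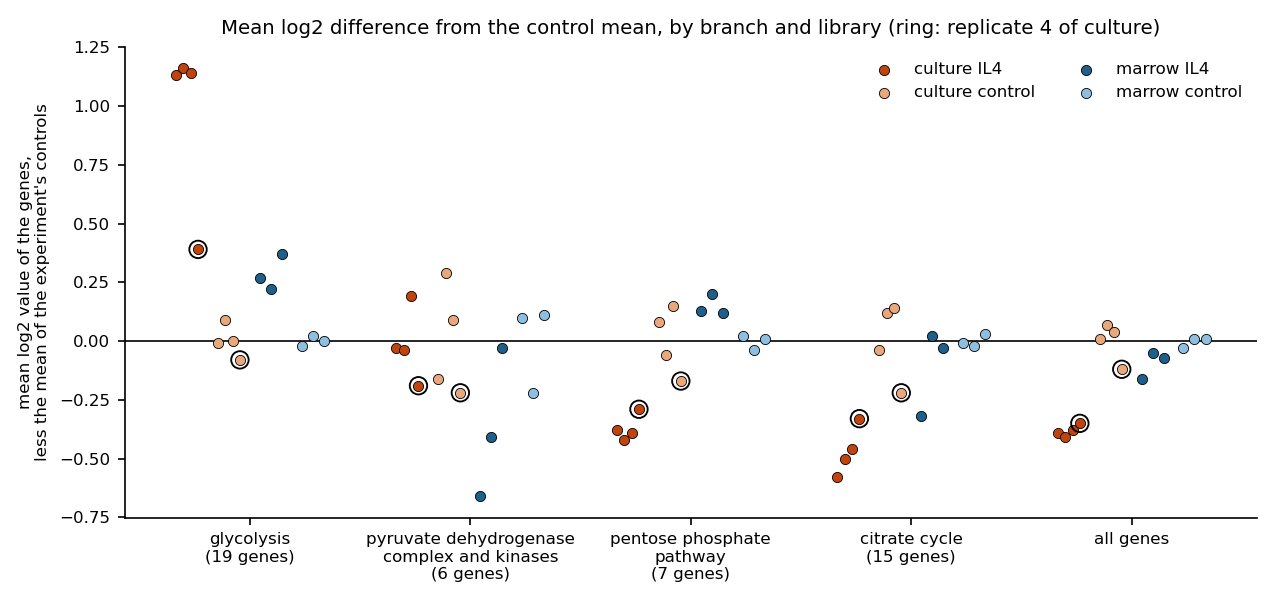
Mean deposited log2 value of the genes of each branch in every library, less the mean of that experiment's controls (vertical axis, log2), with all 9474 genes at the right. Each point is a library and rings mark replicate 4 of culture. Glycolysis points of culture IL4 libraries sit at 1.13 to 1.16, with library 4 at 0.39, while all genes of those libraries sit at -0.41 to -0.35.

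RNA of the glucose transporter gene showed the largest rise of the set in culture. Slc2a1, which encodes the glucose transporter GLUT1, had deposited log2 values of 7.82, 8.04, 8.02 and 6.32 in culture IL4 libraries, against 4.59, 4.80, 4.42 and 4.68 in culture controls. All IL4 libraries were above all controls, with library 4 far below the other IL4 libraries. The rise was 7.62-fold (log2 fold change 2.93 ± 0.34 SE, adjusted p = 0.000142), and leaving out any library kept it between 2.77 and 3.34 on the log2 scale. In recovered reads this was 362, 424, 353 and 104 with IL4 and 42, 33, 26 and 35 in controls. In marrow Slc2a1 had log2 values of 3.89, 4.46 and 5.10 with IL4 and 3.31, 3.42 and 3.92 in controls, with 1 IL4 library inside the control range. That difference of 0.93 ± 0.32 did not pass (adjusted p = 0.0752), though it did after centring (0.0472) and without marrow IL4 library 1 (0.0280).

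The hexokinases, which trap glucose as glucose 6-phosphate, did not move together. Hk3, an isoform of myeloid cells, rose in both experiments. Its log2 values were 8.91, 8.92, 8.82 and 8.66 in culture IL4 libraries and 7.74, 7.35, 7.74 and 8.03 in culture controls, a rise of 1.11 ± 0.15 (adjusted p = 0.000347). In marrow Hk3 stood at 9.70, 10.16 and 9.90 with IL4 and 8.42, 8.31 and 8.28 in controls, a 3.0-fold rise (1.58 ± 0.14, adjusted p = 0.00021) with the smallest adjusted p of the set there. In neither experiment did the groups overlap. Hk2, the inducible isoform, had 8.40, 8.47, 8.33 and 7.33 in culture IL4 libraries and 6.62, 6.68, 6.70 and 6.97 in culture controls, a rise of 1.39 ± 0.23 (adjusted p = 0.00134). In marrow Hk2 had 6.99, 7.43 and 7.53 with IL4 and 7.77, 7.74 and 7.73 in controls. There every IL4 library lay below every control, but the difference of -0.43 ± 0.16 did not pass (adjusted p = 0.0876). Hk1, the widespread isoform bound to mitochondria, had 4.32, 4.07, 4.30 and 4.14 with IL4 and 4.34, 4.58, 4.14 and 3.75 in controls of culture. In marrow Hk1 had 5.23, 5.46 and 5.28 with IL4 and 5.32, 5.30 and 5.19 in controls. The Hk1 groups overlapped in both experiments, with differences of 0.01 ± 0.19 and 0.05 ± 0.15 (adjusted p = 0.98 and 0.849). Gpi1, the isomerase that makes fructose 6-phosphate, rose by 1.17 ± 0.20 in culture (adjusted p = 0.00164) and by 0.70 ± 0.17 in marrow (0.0203). The marrow call of Gpi1 was lost without IL4 library 3, or without any single control, with an adjusted p of 0.0513 to 0.067.

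Phosphofructokinase, the committed step of glycolysis, is built from liver (Pfkl), muscle (Pfkm) and platelet (Pfkp) type subunits, and these moved in opposite directions. Pfkp had log2 values of 7.12, 7.39, 7.10 and 6.90 in culture IL4 libraries and 5.50, 5.0, 5.24 and 5.45 in culture controls, a 3.55-fold rise (1.83 ± 0.15, adjusted p = 2.36e-05). In marrow Pfkp had 6.40, 6.68 and 6.20 with IL4 and 5.22, 5.47 and 5.36 in controls, a rise of 1.08 ± 0.17 (adjusted p = 0.00246). The groups were apart in both experiments. Pfkl had 7.23, 7.35, 7.5 and 6.08 in culture IL4 libraries and 5.91, 5.54, 5.44 and 5.22 in culture controls, a rise of 1.51 ± 0.29 (adjusted p = 0.00271), again with IL4 library 4 the lowest of its group. In marrow Pfkl had 5.73, 5.0 and 6.32 with IL4 and 5.07, 5.44 and 5.32 in controls, which overlapped (0.41 ± 0.30, adjusted p = 0.387). Pfkm was lower in every IL4 library of both experiments. It had 4, 4, 3 and 1 recovered reads in culture IL4 libraries and 18, 17, 14 and 21 in culture controls, with log2 values of 1.62, 1.61, 1.49 and 0.33 and of 3.52, 3.99, 3.67 and 4.08. Summed reads give a ratio, IL4 over control, of 0.162 (95% interval 0.0801 to 0.302, counting error only), and the log2 fold change was -2.56 ± 0.32 (adjusted p = 0.000237). In marrow Pfkm had 6, 6 and 15 reads with IL4 and 28, 25 and 20 in controls, with log2 values of 2.67, 2.74 and 3.39 and of 4.63, 4.46 and 4.05 (-1.45 ± 0.28, adjusted p = 0.00683, ratio of reads 0.381, interval 0.235 to 0.600). Pfkfb3, a bifunctional enzyme that makes the activator of phosphofructokinase, had 10.40, 10.36, 9.96 and 9.47 in culture IL4 libraries and 8.88, 8.81, 8.83 and 9.35 in culture controls. It rose by 1.08 ± 0.21 (adjusted p = 0.00318), with IL4 library 4 only slightly above control library 4. In marrow Pfkfb3 had 10.85, 10.56 and 10.37 with IL4 and 10.61, 10.69 and 10.73 in controls, and did not pass (-0.08 ± 0.15, adjusted p = 0.738). Its relative Pfkfb4 did not pass in culture (0.28, adjusted p = 0.167), though it did after centring (0.0165), nor in marrow (-0.04, adjusted p = 0.942).

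**Figure D3:**
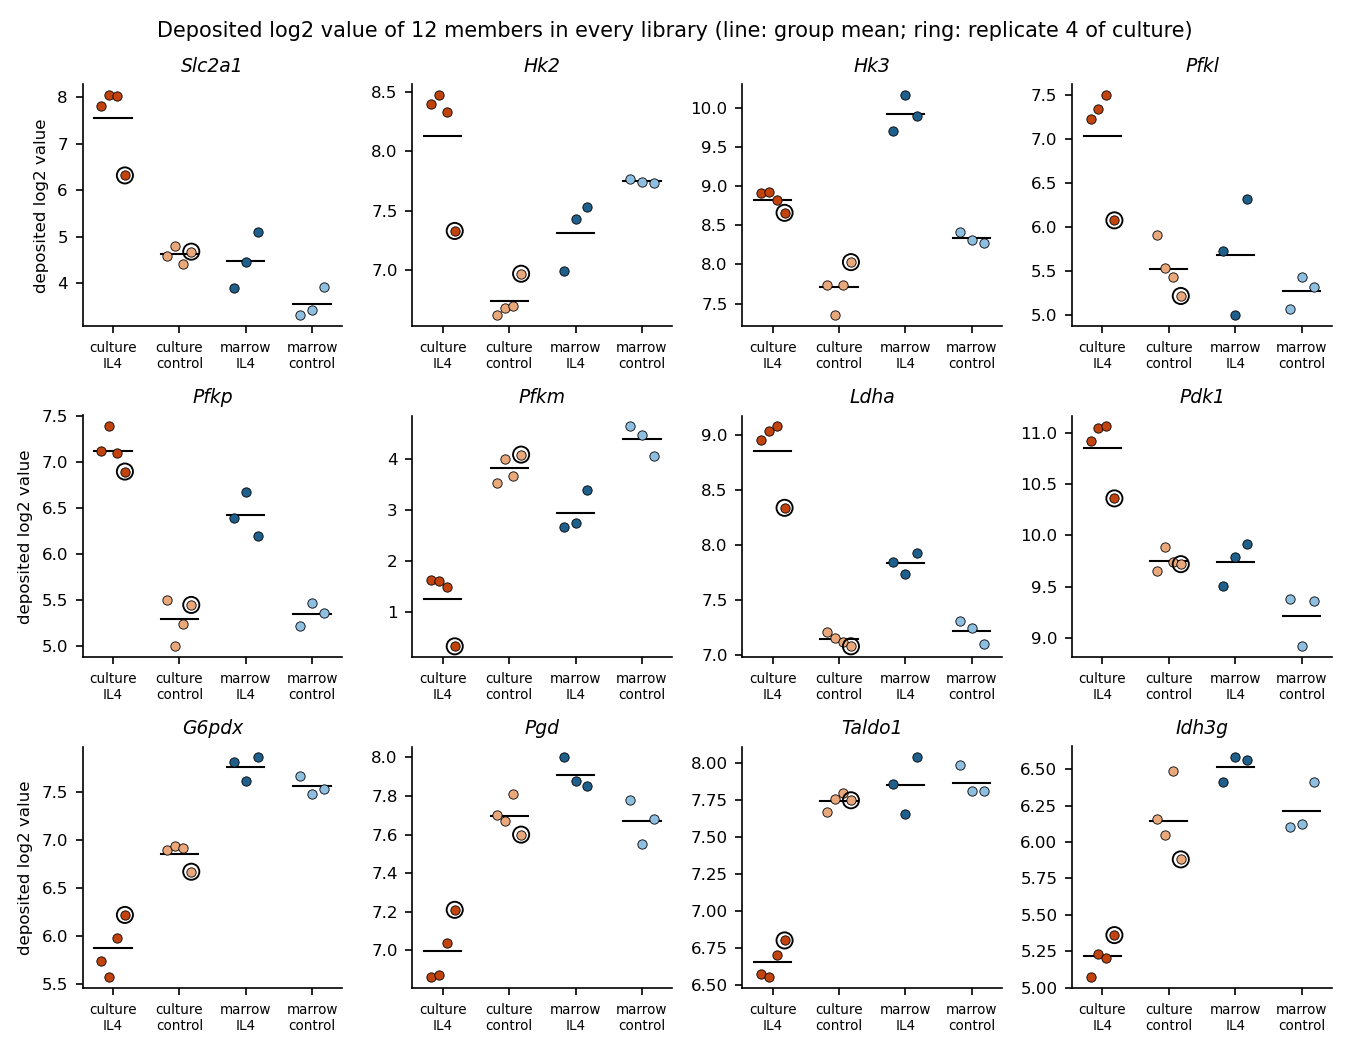
Deposited log2 value (vertical axis) of 12 genes in every library, with culture IL4, culture control, marrow IL4 and marrow control from left to right. Lines are group means and rings mark replicate 4 of culture. Slc2a1 IL4 libraries of culture sit at 6.32 to 8.04 and controls at 4.42 to 4.80, while Taldo1 IL4 libraries sit at 6.55 to 6.80 and controls at 7.67 to 7.80.

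The triose steps, from aldolase to pyruvate kinase, rose in culture for 6 of 7 genes. Values of Gapdh, Pgk1, Pgam1, Eno1 and Pkm among them are uncertain, because much of their sequence also occurs in other genes (given below). Aldoa, aldolase A, had 11.63, 11.60, 11.61 and 10.83 in culture IL4 libraries and 10.31, 10.23, 10.32 and 10.04 in culture controls, a rise of 1.19 ± 0.19 (adjusted p = 0.000871). In marrow Aldoa had 10.13, 10.37 and 10.55 with IL4 and 9.47, 9.30 and 9.38 in controls, a rise of 0.97 ± 0.14 (adjusted p = 0.00163). All IL4 libraries were above all controls of their experiment. The isomerase gene Tpi1 rose by 1.29 in culture (adjusted p = 0.00386) and by 0.53 in marrow (0.0450), the marrow call being lost without any single library other than IL4 library 1 (adjusted p = 0.0642 to 0.128). The mutase gene Pgam1 (1.27, adjusted p = 0.00206) and the enolase gene Eno1 (1.26, 0.00265) rose in culture, and so did the phosphoglycerate kinase gene Pgk1 (1.03, 0.0176), which lost the call without IL4 library 2 (0.0510). In marrow these 3 genes had log2 fold changes of 0.33, 0.59 and 0.29 and did not pass (adjusted p = 0.209, 0.102 and 0.252), though Eno1 did with voom weights on recovered reads (0.64, 0.0086). Gapdh, the dehydrogenase often used as a loading control, had 4.17, 4.44, 4.40 and 3.11 in culture IL4 libraries and 3.19, 4.16, 3.40 and 2.77 in culture controls. These overlapped, and the difference of 0.65 ± 0.36 did not pass (adjusted p = 0.170), though it did without IL4 library 4 (0.96, 0.0322). In marrow Gapdh had 4.46, 4.88 and 4.36 with IL4 and 3.23, 3.92 and 3.73 in controls, with no overlap and a rise of 0.94 ± 0.25 (adjusted p = 0.0311). That call was lost without any single library other than control library 2 (adjusted p = 0.0524 to 0.0911). Pkm, pyruvate kinase, had 9.82, 9.95, 9.84 and 9.14 in culture IL4 libraries and 9.22, 9.25, 9.26 and 8.86 in culture controls. Its rise of 0.54 ± 0.18 (adjusted p = 0.0374) was the smallest called of the branch, and passed only without IL4 library 4 (0.00274) when single libraries were left out (otherwise 0.0576 to 0.100). In marrow Pkm had 9.37, 9.19 and 9.35 with IL4 and 9.05, 8.90 and 8.85 in controls, apart by 0.37 ± 0.12, which did not pass (adjusted p = 0.0602) but did after centring (0.0314).

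Lactate dehydrogenase reduces pyruvate to lactate, and its subunit genes Ldha and Ldhb differed. Ldha had 8.96, 9.04, 9.08 and 8.34 in culture IL4 libraries and 7.21, 7.16, 7.12 and 7.08 in culture controls, a 3.28-fold rise (1.71 ± 0.16, adjusted p = 4.5e-05) that was kept without each library in turn. In marrow Ldha had 7.85, 7.74 and 7.93 with IL4 and 7.31, 7.25 and 7.10 in controls, a 1.53-fold rise (0.62 ± 0.12, adjusted p = 0.00864). The groups did not overlap in either experiment. Ldhb, the subunit of heart-type enzyme, had 4.0, 3.21, 4.23 and 4.30 in culture IL4 libraries and 3.30, 3.24, 3.19 and 4.07 in culture controls, which overlapped (0.49, adjusted p = 0.199). In marrow it had 2, 2 and 1 reads with IL4 and 5, 8 and 11 in controls, with log2 values of 1.42, 1.49 and 0.15 and of 2.38, 3.00 and 3.35. Ldhb fell there by 1.89 on the log2 scale (adjusted p = 0.0190), with a ratio of summed reads of 0.215 (95% interval 0.0639 to 0.574), and the call was lost without control library 2 (0.0638) or 3 (0.0778).

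At pyruvate entry, 1 of 6 genes rose and 0 fell in culture, where 7.96% of all genes rose and 32.6% fell. In marrow 0 rose and 1 fell, where 6.7% of all genes rose and 11.5% fell. The risen gene of culture was the kinase gene Pdk1, whose product switches the pyruvate dehydrogenase complex off. Pdk1 had 10.92, 11.05, 11.06 and 10.36 in culture IL4 libraries and 9.65, 9.89, 9.74 and 9.72 in culture controls, a 2.14-fold rise (1.10 ± 0.16, adjusted p = 0.000674) without overlap. In marrow Pdk1 had 9.51, 9.79 and 9.92 with IL4 and 9.38, 8.92 and 9.36 in controls, also without overlap, and the difference of 0.52 ± 0.17 did not pass (adjusted p = 0.0588) but did after centring (0.0300). The kinase gene Pdk3 did not pass in culture (-0.18) or marrow (0.13). Pdk2, another kinase gene, did not pass in culture (-0.22) but fell in marrow by 2.30 (adjusted p = 0.0479). This rested on 0, 0 and 3 reads with IL4 against 5, 2 and 8 in controls (ratio of summed reads 0.206, 95% interval 0.0382 to 0.728), the groups overlapped, and it did not pass after centring (0.0557) or without IL4 library 1 or 2 or control library 1 or 3 (0.118 to 0.160). The genes of the complex itself gave -0.32 for Pdha1, -0.43 for Pdhb and -0.06 for Dlat in culture, and -0.13, -0.31 and -0.10 in marrow, and none of these passed. Pdha1 passed as lower in culture without IL4 library 1 (-0.44, adjusted p = 0.0463) or control library 4 (-0.43, 0.0396), and Pdhb without control library 1 (-0.58, 0.0317). Without both replicate 4 libraries 1 of the 6 genes rose and 0 fell in culture. The branch median was -0.20 in culture, 0.16 after centring, and -0.11 in marrow.

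In the pentose phosphate pathway 3 of 7 genes fell and 1 rose in culture, where 32.6% of all genes fell and 7.96% rose. Among the fallen were both NADPH-yielding steps. Without both replicate 4 libraries 0 rose and 4 fell, and after centring 1 rose and 3 fell, where 12.7% of all genes fell. In marrow 0 of the 7 were called, where 18.2% of all genes were called either way, so 0 of so few genes says little. G6pdx, the enzyme that commits glucose to the oxidative branch, had 5.74, 5.57, 5.98 and 6.22 in culture IL4 libraries and 6.90, 6.94, 6.92 and 6.67 in culture controls, a fall of 0.98 ± 0.15 (adjusted p = 0.000976). In marrow G6pdx had 7.81, 7.62 and 7.86 with IL4 and 7.67, 7.48 and 7.53 in controls, which overlapped (0.20 ± 0.13, adjusted p = 0.311). Pgd, the second NADPH-yielding enzyme of that branch, had 6.86, 6.87, 7.04 and 7.21 in culture IL4 libraries and 7.70, 7.67, 7.81 and 7.60 in culture controls, a fall of 0.70 ± 0.12 (adjusted p = 0.00136). In marrow Pgd had 8.0, 7.88 and 7.85 with IL4 and 7.78, 7.55 and 7.68 in controls, higher in 3 of 3 IL4 libraries without passing (0.24 ± 0.12, adjusted p = 0.210). Taldo1, the transaldolase of the non-oxidative branch, had the smallest p of the fallen genes, with 6.57, 6.55, 6.70 and 6.80 in culture IL4 libraries and 7.67, 7.76, 7.80 and 7.75 in culture controls (-1.09 ± 0.11, adjusted p = 5.25e-05). In marrow Taldo1 had 7.86, 7.66 and 8.04 with IL4 and 7.99, 7.81 and 7.81 in controls, which overlapped (-0.02 ± 0.14, adjusted p = 0.957). All 3 falls of culture passed after centring, G6pdx at -0.62 (adjusted p = 0.0103), Pgd at -0.34 (0.0495) and Taldo1 at -0.73 (0.000696). Rpia, the isomerase that forms ribose 5-phosphate, rose in culture by 0.60 ± 0.20 (adjusted p = 0.0338). It had only 16, 15, 13 and 14 reads with IL4 and 12, 7, 9 and 8 in controls, and the call was kept only without control library 3 (0.0460) when single libraries were left out (otherwise 0.0585 to 0.0742), and it was lost without both replicate 4 libraries (0.0997). The lactonase gene Pgls (-0.28), the transketolase gene Tkt (-0.15) and the epimerase gene Rpe (0.01) did not pass in culture, but Tkt was lower without both replicate 4 libraries (-0.34, adjusted p = 0.0276). In marrow Pgls, Tkt, Rpia and Rpe had log2 fold changes of -0.23, 0.28, 0.18 and 0.38. None of the 7 genes passed there, but Rpe was higher after centring (0.49, adjusted p = 0.0388), and Tkt (0.29, 0.0144) and Pgd (0.25, 0.0480) were higher with voom weights on recovered reads. The branch median was -0.28 in culture, 0.08 after centring, and 0.20 in marrow, against -0.36, 0.0 and -0.06 over all genes.

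In the citrate cycle 0 of 15 genes rose and 4 fell in culture. In marrow 0 rose and 1 fell, where 6.7% of all genes rose and 11.5% fell. The fallen share in culture was no larger than the 32.6% of all genes, and without both replicate 4 libraries 0 rose and 5 fell there. After centring 3 rose and 2 fell in culture, against 14.4% and 12.7% of all genes. The branch medians of -0.23 in culture and -0.17 in marrow were close to those of all genes, -0.36 and -0.06, and the culture median was 0.14 after centring. The isocitrate dehydrogenases work with NAD or NADP, in mitochondria or in the cytosol. Idh3g, a subunit of the NAD-linked mitochondrial enzyme, had 5.07, 5.23, 5.20 and 5.36 in culture IL4 libraries and 6.16, 6.05, 6.49 and 5.88 in culture controls, a fall of 0.93 ± 0.15 (adjusted p = 0.00111). In marrow Idh3g had 6.41, 6.58 and 6.56 with IL4 and 6.10, 6.12 and 6.41 in controls (0.30 ± 0.14, adjusted p = 0.178). The other subunits did not pass in culture, with -0.28 for Idh3a and -0.21 for Idh3b, or in marrow, with -0.34 and -0.25. Idh2, the NADP-linked enzyme of mitochondria, had 6.71, 6.27, 6.59 and 7.10 in culture IL4 libraries and 7.27, 7.57, 7.57 and 7.32 in culture controls. It fell by 0.77 ± 0.17 (adjusted p = 0.00608), which did not pass after centring (0.0951). In marrow Idh2 had 7.43, 7.77 and 7.40 with IL4 and 7.09, 7.17 and 7.33 in controls, higher in 3 of 3 IL4 libraries without passing (0.34 ± 0.15, adjusted p = 0.142). Idh1, the NADP-linked enzyme of the cytosol, had 7.13, 7.14, 7.24 and 7.80 in culture IL4 libraries and 6.75, 6.63, 7.03 and 7.41 in culture controls. Its difference of 0.37 ± 0.20 did not pass (adjusted p = 0.169), but did after centring (0.0314) or without control library 4 (0.0461). In marrow Idh1 had 5.63, 5.84 and 5.99 with IL4 and 5.78, 5.59 and 5.98 in controls (0.04, adjusted p = 0.907). Cs, citrate synthase, had 4.94, 4.99, 4.88 and 5.22 in culture IL4 libraries and 5.07, 5.35, 5.39 and 5.08 in culture controls (-0.22 ± 0.14, adjusted p = 0.252). In marrow Cs had 5.50, 5.76 and 5.68 with IL4 and 5.95, 5.68 and 5.82 in controls (-0.17 ± 0.15, adjusted p = 0.487). Citrate synthase overlapped between the groups in both experiments.

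Of the remaining citrate cycle genes, Suclg2 and Fh1 fell in culture and Ogdh in marrow. Suclg2, the GTP-forming subunit of succinate-CoA ligase, had 0, 3, 3 and 0 reads in culture IL4 libraries and 13, 21, 19 and 7 in culture controls. Its fitted fall of 3.52 ± 0.72 (adjusted p = 0.00386) rests on these few reads, and summed reads give a ratio of 0.0947 (95% interval 0.0334 to 0.218). In marrow Suclg2 had 20, 11 and 12 reads with IL4 and 13, 9 and 11 in controls (0.39, adjusted p = 0.459). Fh1, fumarase, fell in culture by 0.86 ± 0.21 (adjusted p = 0.00918), which did not pass after centring (0.0848), and gave -0.53 in marrow (adjusted p = 0.380). Ogdh, of the oxoglutarate dehydrogenase complex, gave -0.15 in culture (adjusted p = 0.413) and fell in marrow by 0.55 ± 0.13 (0.0211). The marrow call of Ogdh was lost without IL4 library 1 (0.0549) or control library 2 (0.0781) or 3 (0.0544). Its partner gene Dlst gave -0.26 in culture and 0.02 in marrow, the ATP-forming ligase subunit gene Sucla2 -0.32 and -0.53, and the common subunit gene Suclg1 -0.23 and 0.12. The cytosolic aconitase gene Aco1 gave 0.32 in culture and -0.50 in marrow, the cytosolic malate dehydrogenase gene Mdh1 -0.08 and -0.25, and its mitochondrial relative Mdh2 0.14 and 0.27. None of these 6 genes passed, except that Aco1 (0.68, adjusted p = 0.0108) and Mdh2 (0.50, 0.0149) were higher in culture after centring, and Aco1 also without IL4 library 2 (0.43, 0.0441). Idh3a was lower in culture without both replicate 4 libraries (-0.68, adjusted p = 0.0407).

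Levels of different genes were compared only as RPM per kb of the longest coding transcript, since the deposited log2 values carry a constant per gene. Among the 45 genes with recovered reads, Ldha had the highest level in culture IL4 libraries, 977 ± 205, against 293 ± 12.2 in culture controls (SD, n = 4 each), and Taldo1, at 244 ± 20.4 with IL4 and 520 ± 17.3 in controls, was the highest in culture controls. In marrow Taldo1 (535 ± 71.5 with IL4, 534 ± 38.3 in controls), Tkt (517 ± 54.2, 421 ± 34.7) and Hk3 (514 ± 81.7, 169 ± 8.47) led in IL4 libraries (SD, n = 3 each), and their means there differed by less than their SD. Slc2a1 stood at 140 ± 58.1 with IL4 and 16.5 ± 1.79 in controls of culture, and at 15 ± 6.41 and 7.35 ± 1.82 in marrow.

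The make-up of isoenzymes on the same scale was described without a test. Of hexokinase reads per kb, Hk3 made up 75.0%, 75.9%, 74.4% and 79.6% in culture IL4 libraries and 69.2%, 60.1%, 70.8% and 76.7% in culture controls, which overlapped. In marrow Hk3 made up 83.7%, 85.4% and 84.0% with IL4 and 63.7%, 62.4% and 63.0% in controls, and Hk2 3.52%, 3.54% and 4.49% against 11.2%, 11.6% and 11.9%. These marrow groups lay far apart. Among phosphofructokinases, the share of Pfkm was 1.04%, 0.905%, 0.846% and 0.483% in culture IL4 libraries and 10.7%, 18.4%, 14.6% and 18.5% in culture controls. In marrow it was 4.46%, 4.64% and 6.89% with IL4 and 27.7%, 21.6% and 18.3% in controls. The summed level of the 3 subunits was 178 ± 39 with IL4 and 63.6 ± 7.2 in controls of culture, and 91.4 ± 5.8 and 60.8 ± 4.6 in marrow. Ldha made up 97.7% ± 1.1 of lactate dehydrogenase with IL4 and 95.0% ± 1.8 in controls of culture, and 99.5% ± 0.27 with IL4 and 96.7% ± 1.3 in controls of marrow. Among the kinases of pyruvate dehydrogenase, Pdk1 held 67.6% ± 3.1 with IL4 and 45.3% ± 3.7 in controls of culture, whereas in marrow Pdk3 held most, 61.8% ± 5.1 with IL4 and 61.9% ± 5.1 in controls.

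**Figure D4:**
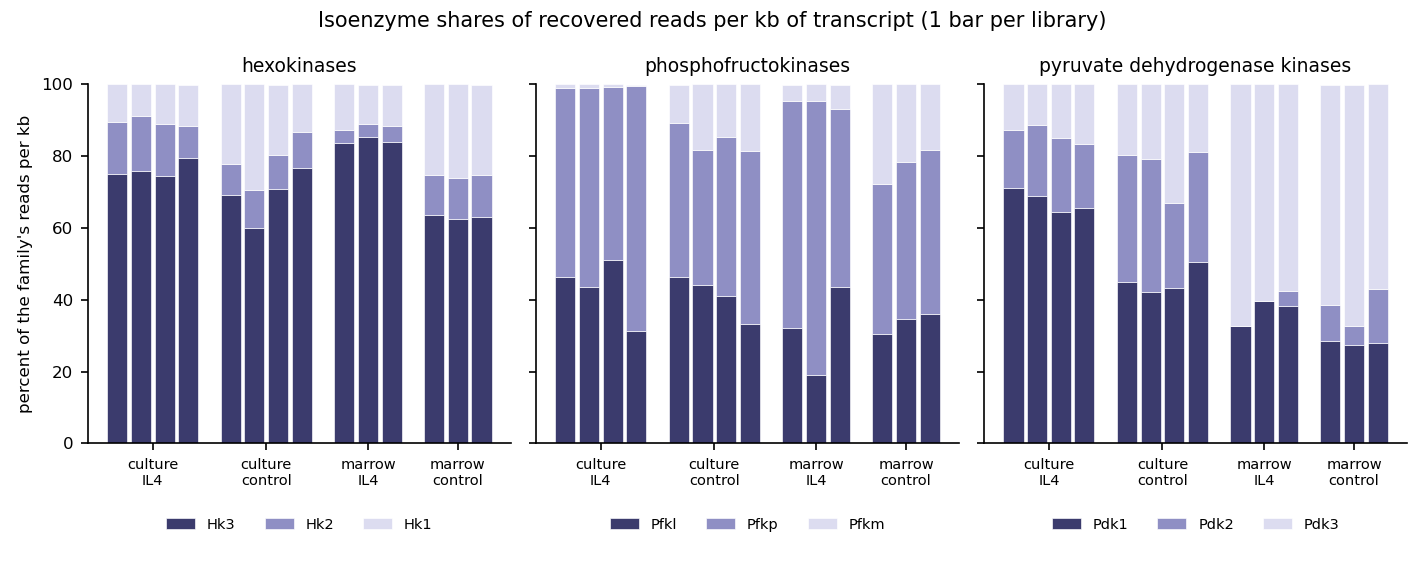
Share of each isoenzyme in the summed recovered reads per kb of its family (vertical axis, percent), 1 bar per library, with culture IL4, culture control, marrow IL4 and marrow control from left to right. Hk3 fills 83.7% to 85.4% of the bars of marrow IL4 libraries and 62.4% to 63.7% of those of marrow controls, and the Pfkm band is thin in every IL4 library.

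The response to IL4 itself differed between culture and marrow for 13 of the 47 genes (contrast of both differences over 14 libraries, limma, adjusted over 9474 genes). The response was higher in culture for 7 genes, where 6.45% of all genes were higher in that contrast, and the response was lower in culture for 6, where 16.6% were lower (23.1% either way). After centring the counts were 11 and 6, against 9.38% and 9.5%, and without both replicate 4 libraries 12 and 7. Of the 7, all in glycolysis, the glucose transporter gene Slc2a1 differed by 1.99 ± 0.52 (adjusted p = 0.0135; 0.0646 with voom weights on recovered reads), Hk2 by 1.82 ± 0.32 (0.00119), Pfkfb3 by 1.16 ± 0.29 (0.0109), Ldha by 1.10 ± 0.22 (0.00256) and Ldhb by 2.38 ± 0.54 (0.00572). The Ldhb difference came with a marrow fall on 5 summed reads with IL4, while its culture change did not pass (0.49, adjusted p = 0.199). Pfkp differed by 0.75 ± 0.23 (adjusted p = 0.0295) and Pgam1 by 0.94 ± 0.31 (0.0412). The Pgam1 call was lost without any single library other than culture IL4 library 4 (adjusted p = 0.0506 to 0.0894). That of Pfkp was lost without culture IL4 library 2, culture control library 2 or 3, marrow IL4 library 1 or 3, or marrow control library 2 or 3 (0.0521 to 0.0777). The 6 with a lower response in culture were the pentose phosphate genes G6pdx (-1.18 ± 0.21, adjusted p = 0.00118), Pgd (-0.94 ± 0.16, 0.00100) and Taldo1 (-1.07 ± 0.16, 0.000359) and the citrate cycle genes Idh3g (-1.24 ± 0.21, 0.000894), Idh2 (-1.10 ± 0.24, 0.00493) and Suclg2 (-3.91 ± 0.96, 0.00951). None of these 6 calls was lost when single libraries were left out, but that of Suclg2 rests on 6 summed reads with IL4 in culture. For Hk3, which rose in both, the difference of -0.47 did not pass (adjusted p = 0.126), though it did without culture control library 2 (-0.59, 0.0434). The experiments differ in the source of IL4, the cells and the RNA of neutrophil markers described above, so these cannot be told apart in this contrast.

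Genes around the set were taken from 4 lists, whose counts stand beside 7.96% of all genes higher and 32.6% lower in culture, and 6.7% higher and 11.5% lower in marrow. Of 22 measured genes inducible by hypoxia and not in the set (30 listed), 14 rose and 1 fell in culture and 8 rose and 1 fell in marrow, with median log2 fold changes of 1.2 and 0.68, against -0.36 and -0.06 over all genes. Without both replicate 4 libraries 16 rose and 1 fell in culture. The prolyl hydroxylase gene Egln3, a target and inhibitor of hypoxia-inducible factors, rose by 5.08 in culture and 2.82 in marrow (22 to 129 reads with IL4 and 1 to 3 in controls of culture), and the repressor gene Bhlhe40 by 3.95 and 2.09. The membrane-binding protein gene Anxa2 rose by 1.19 and 0.57. The collagen hydroxylase gene Plod1 fell in culture by 1.62, and the transferrin receptor gene Tfrc, also an erythroid marker, rose by 2.41 in culture but fell by 2.15 in marrow, where the erythroid markers (2 of 12 listed, Tfrc among them) summed to 197 to 275 RPM with IL4 and 1500 to 1570 in controls. Of 15 measured genes of monocarboxylate transport and glycogen turnover (17 listed), 5 rose and 5 fell in culture (median 0.18) and 2 rose and 2 fell in marrow (0.17). The fallen share in culture was close to that of all genes, and the counts were also 5 and 5 without both replicate 4 libraries. The lactate exporter gene Slc16a3 rose in culture by 2.28, while the monocarboxylate carrier gene Slc16a7 (-1.95), the glycogen phosphorylase gene Pygb (-1.65) and the phosphoglucomutase relative Pgm2l1 (-2.15) fell there. In marrow the glycogen synthase gene Gys1 (0.71) and the liver-type phosphorylase gene Pygl (0.89) rose, and the monocarboxylate carrier gene Slc16a1 (-1.04) and its chaperone gene Bsg (-0.71) fell, Bsg not after centring (adjusted p = 0.0579). Further enzymes and carriers of the same branches (37 measured of 58 listed) gave 4 higher and 7 lower genes in culture, 6 and 2 after centring, 3 and 10 without both replicate 4 libraries, and 2 higher and 2 lower in marrow, with medians of -0.18 in culture, 0.18 after centring, and -0.04 in marrow. Among them the mitochondrial aspartate-glutamate carrier gene Slc25a13 rose in culture by 1.87 and the pyruvate dehydrogenase phosphatase gene Pdp1 by 0.99, while Pfkfb2 fell by 1.24. The cytosolic aspartate aminotransferase gene Got1 rose by 0.68 in culture and 0.92 in marrow. Of 26 measured regulators (32 listed), 4 rose and 3 fell in culture, 7 and 0 after centring, 6 and 2 without both replicate 4 libraries, and 2 rose and 3 fell in marrow, with medians of -0.18 in culture, 0.18 after centring, and 0.11 in marrow. The fallen share of the regulators was below that of all genes in culture and close to it in marrow. Myc rose by 1.05 in culture and 1.17 in marrow, the nuclear receptor gene Pparg by 1.59 in culture, and Epas1, which encodes a hypoxia-inducible factor, by 2.62 in culture. The transcription factor gene Irf4 rose by 3.32 in culture and fell by 1.54 in marrow. In marrow Pparg had 9 to 18 reads with IL4 and 0 to 1 in controls, and its fitted rise of 4.19 (adjusted p = 0.001) rests on 1 summed read in the controls (ratio of summed reads 39.1, 95% interval 6.61 to 1590).

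Read assignment limits some of these genes. Of the 50-base words of the longest coding transcript, 82.5% also occurred in other annotated genes for Gapdh, 72.2% for Eno1, 68.0% for Pgk1, 41.5% for Pgam1, 34.4% for Pkm, 30.3% for Pdhb, 27.0% for Ldhb and 21.8% for Suclg2. These 8 genes lay above a cut of 20%, and their values are uncertain. Genes below the cut were not all free of shared words, with 19.3% for Gpi1, 16.6% for Ldha, 13.5% for Aldoa and 10.9% for Taldo1. The use of strand in counting is not given in the sources used here. Recovered reads per library were 509782 to 792245, and 5 of the 45 genes with recovered reads averaged under 20 reads per library.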

How the data were processed

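RNA of IL4 and control macrophages was sequenced from culture (4 and 4 libraries) and from leukemic marrow (3 and 3). RNeasy Micro columns and the TruSeq RNA v2 library kit were used, per the labels' protocols. The submitters' processing notes name bcl2fastq, TopHat2 2.0.13 and mm10. How reads were counted, normalized and assigned to strand is not given in the sources used here. The authors deposited log2 values per gene and library, together with p-values, q-values and fold ratios of their own comparisons, which were not used here. The deposited log2 values followed log2(reads + 0.5) plus a constant per gene and one per library. From these steps whole reads were recovered for 9426 of 9474 genes (99.5%), with the log2 values left by at most 0.00061 below 100 reads. Aldoa and Pkm were without recovered reads.

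Both tables were fitted with limma 3.58.1 in R 4.3.3 (lmFit, eBayes with a variance trend), each table by itself, and over all 14 libraries for the difference of the responses. Tests were two-sided, with Benjamini-Hochberg adjustment over 9474 genes and a threshold of 0.05. No filter on low values was applied. Fold changes are on the log2 scale of the deposited values. For genes with few reads these can lie on either side of the ratio of summed reads. The fitted fold was 0.087 for Suclg2 in culture (ratio of reads 0.0947) and 0.27 for Ldhb in marrow (0.215). Standard errors are those of limma. Lists were described by counts and medians with no test of the list. Levels per kb used the longest coding transcript of GENCODE M21 (GRCm38), the build of mm10, and promoters came from RefSeq. Tables and figures were made with Python 3.11.15, numpy 2.4.6, pandas 2.3.3 and matplotlib 3.10.9. The fits were tested on simulated data.

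The genes and lists were chosen with earlier results of these data known. Every gene of the set is given with its fold change in both experiments. Values in every library are given for a fixed list of enzymes of each step, for the 10 smallest p of culture, the 6 smallest of marrow and the 6 smallest of the difference. Only some genes of each further list were named, in some lists more than the 4 by smallest p that were first planned. Alternatives were centring, quantile normalization, other variance models, a minimum mean of 10 reads, voom weights on recovered reads, a replicate block, 3 reads added before the log, and leaving out libraries. Leaving out both replicate 4 libraries of culture was chosen after seeing the data. Depth was 509782 to 792245 recovered reads in each library, the median gene having 24 to 41, and intervals of read ratios cover counting error only.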

Additional observations from a re-analysis of the deposited data

Results flagged for a closer look

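Of 94 groups of 4 culture libraries, each the IL4 or the control libraries of 1 of the 47 genes, 15 held a library that lay apart from the others by more than Dixon's 95% limit, where chance gives about 1 in 20. IL4 library 4 was that library in 9 of the 15 and control library 4 in 4. In IL4 library 4 the deposited log2 value was 6.32 for Slc2a1 (other IL4 libraries 7.82 to 8.04), 7.33 for Hk2 (8.33 to 8.47), 9.45 for Gpi1 (10.23 to 10.35), 10.83 for Aldoa (11.60 to 11.63), 7.36 for Tpi1 (8.44 to 8.62), 9.14 for Pkm (9.82 to 9.95) and 8.34 for Ldha (8.96 to 9.08). All 7 of these rose in culture, and library 4 was the lowest of its group. In the same library Pfkm was low at 0.33 (1.49 to 1.62) and Idh1 high at 7.80 (7.13 to 7.24). For Pfkm this was 1 read against 4, 4 and 3, near the floor. In control library 4 Pfkfb3 was high at 9.35 (other controls 8.81 to 8.88), Ldhb high at 4.07 (3.19 to 3.30), Pkm low at 8.86 (9.22 to 9.26) and G6pdx low at 6.67 (6.90 to 6.94). The last pair lay in other libraries, with Pdha1 high at 6.76 in IL4 library 1 (6.25 to 6.32) and Pdk3 high at 3.83 in IL4 library 3 (3.28 to 3.33). For Pdk3 this was 11 reads against 9, 9 and 7.

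The response to IL4 differed between culture and marrow, by the contrast of both log2 differences, for 13 genes. It was higher in culture for Slc2a1 (1.99), Hk2 (1.82), Pfkp (0.75), Pfkfb3 (1.16), Pgam1 (0.94), Ldha (1.10) and Ldhb (2.38). It was lower in culture for G6pdx (-1.18), Pgd (-0.94), Taldo1 (-1.07), Idh2 (-1.10), Idh3g (-1.24) and Suclg2 (-3.91). The value of Ldhb rests on 5 summed reads with IL4 in marrow, and that of Suclg2 on 6 with IL4 in culture.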

How the results depend on the processing

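No gene of the set changed direction between a call and any alternative run. Centring each library on its median moved the number of risen genes in marrow to 11, against 7, and that of genes with a higher response in culture to 11, against 7. Quantile normalization gave 11 for the count in the difference and leaving out both replicate 4 libraries of culture gave 12. Without the variance trend 2 genes fell in marrow, against 4. The cause of these changes was not tested, apart from the constant that centring adds. Centring moved the branch medians of culture to 1.54 for glycolysis, 0.16 for the pyruvate dehydrogenase complex and kinases, 0.08 for the pentose phosphate pathway and 0.14 for the citrate cycle, and those of marrow to 0.51 for glycolysis and 0.31 for the pentose phosphate pathway. With single libraries left out, 14 to 16 genes rose and 8 to 9 fell in culture, 4 to 8 rose and 1 to 4 fell in marrow, and 5 to 13 were higher and 6 to 7 lower in the difference of responses. The 13 came without culture IL4 library 4. Calls held without each library in turn for 21 of 24 genes in culture, 5 of 11 in marrow and 11 of 13 in the difference. Branch medians of culture then ran from 1.09 to 1.39 for glycolysis, -0.31 to -0.10 for pyruvate dehydrogenase, -0.40 to -0.17 for the pentose phosphate pathway and -0.29 to -0.15 for the citrate cycle, and those of marrow from 0.35 to 0.57, -0.25 to 0.05, 0.16 to 0.26 and -0.23 to 0.00. With voom weights on recovered reads, 13 rose and 8 fell in culture, 10 and 3 in marrow, and 6 and 7 in the difference, over 45 genes. Deviations of IL4 and control libraries with the same replicate number correlated at -0.045 to 0.022 in culture, where other pairs gave -0.034 to 0.033. In marrow the same numbers gave 0.026 to 0.059 and other pairs -0.044 to 0.012. These small values cannot settle whether the numbers pair the libraries. With the number as a replicate block, 16 rose and 8 fell in culture, 8 and 4 in marrow, and 9 and 6 in the difference. Shares of all genes are given only for the main and the centred fits. Counts of the other runs therefore cannot be set against a background. Depth limits genes with few reads, such as Pfkm, Ldhb, Pdk2 and Suclg2, whose fold changes rest on 3 to 27 summed reads with IL4.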
